A study of Homo sapiens with 6 samples.

Results

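Protein folding in the endoplasmic reticulum (ER) was followed through 10 genes in T24 cells, a human bladder cancer line: HSPA5, HSP90B1, HYOU1, CALR, CANX, PDIA3, PDIA4, PDIA6, SDF2L1 and MANF. They were found by gene symbol, 10 of the 58735 genes in the expression table, and were selected on their expression values and fold changes between the same libraries, so that their differences between the groups are given here as a description without a test. RNA sequencing of total RNA covered 3 libraries labelled sgOTUD1, with the genotype given as OTUD1 knockout, and 3 libraries labelled sgNC, which carry an empty vector as negative control. All cells were grown in RPMI1640 medium with 10% fetal bovine serum. OTUD1 encodes a deubiquitinase, an enzyme that takes ubiquitin off proteins. Whether the cells labelled sgOTUD1 were 1 clone or a pool is not stated in the labels, nor whether replicates were separate cultures, and p-values then measure only the spread between these libraries. That spread may be technical. In bulk RNA a change in the number of expressing cells and a change of RNA per cell cannot be told apart.

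Proteins that enter the secretory pathway fold in the ER lumen. There HSP70 and HSP90 type chaperones hold unfolded chains, the lectins calreticulin and calnexin hold chains that carry trimmed sugars, and protein disulfide isomerases (PDIs) form and reshuffle disulfide bonds. When unfolded chains build up, the unfolded protein response (UPR) raises the transcription of many of these genes through the factors ATF6 and XBP1, which act with NF-Y at promoter sequences called ER stress response elements (ERSE). Tumour cells often carry high levels of ER chaperones.

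These elements were not used in the choice of genes. They are, as said above, elements through which many of these genes are known to be raised. The shares below are therefore a description and no test. RefSeq windows on GRCh38.p14 that run from 250 bases before to 50 bases after a transcription start were searched on both strands for exact matches to 3 motifs. These were ERSE, which is CCAAT and CCACG with 9 bases of any kind between, its short form ERSE-II, which is ATTGG and CCACG with 1 base between, and the UPR element core TGACGTG. A window was matched by symbol for 9 of the 10 genes, the exception being PDIA3. ERSE was found for 5 of these 9 and ERSE-II for 2, against 0.0916% and 0.0696% of the 27305 genes with a window. The core was found for 1 member, HYOU1, against 2.4% of genes, at chr11:119057387-119057393, where it overlaps an ERSE-II. No member held both ERSE and ERSE-II. Each site below is printed 5′ to 3′ on the strand of its gene with 5 flanking bases on each side, and capitals mark the fixed letters of the element, which read CGTGG and ATTGG (or CCAAT in ERSE-II) where the element lies in reverse.
HSPA5, ERSE, chr9:125241386-125241414, minus strand: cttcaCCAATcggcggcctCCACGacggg
HSP90B1, ERSE, chr12:103930211-103930239, plus strand: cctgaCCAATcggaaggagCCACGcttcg
HSP90B1, ERSE in reverse, chr12:103930316-103930344, plus strand: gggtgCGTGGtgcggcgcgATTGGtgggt
CALR, ERSE in reverse, chr19:12938379-12938407, plus strand: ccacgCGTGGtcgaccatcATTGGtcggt
CANX, ERSE, chr5:179698773-179698801, plus strand: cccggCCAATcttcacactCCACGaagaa
PDIA6, ERSE, chr2:10812848-10812876, minus strand: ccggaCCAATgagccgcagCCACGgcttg
SDF2L1, ERSE-II in reverse, chr22:21642109-21642129, plus strand: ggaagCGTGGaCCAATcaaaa
HYOU1, ERSE-II in reverse, chr11:119057375-119057395, minus strand: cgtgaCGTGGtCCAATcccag
HYOU1, ERSE-II in reverse, chr11:119057269-119057289, minus strand: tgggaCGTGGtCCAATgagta
The HSPA5 site ends 48 bases before the start, and the others end 68 to 207 bases before a RefSeq start of their gene. Both HSP90B1 sites and the CANX site, as printed, overlap an exon annotated in GENCODE 29. They lie past the starts annotated there for these genes, 103930107 for HSP90B1 and 179678628 for CANX. No exact match lay in the windows of PDIA4 and MANF, which says only that these letters are absent from them.

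The upstream stretches of HSPA5 and HYOU1 are given whole because these are the members with the largest and the smallest difference between the groups. Both run over the 250 bases before the start, with the fixed letters of ERSE or ERSE-II in capitals.
HSPA5, chr9:125241344-125241593, minus strand: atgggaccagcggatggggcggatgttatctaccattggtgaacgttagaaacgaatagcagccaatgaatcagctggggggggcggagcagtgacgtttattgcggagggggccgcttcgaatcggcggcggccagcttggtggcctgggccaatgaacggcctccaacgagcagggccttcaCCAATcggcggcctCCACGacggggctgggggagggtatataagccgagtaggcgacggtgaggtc
HYOU1, chr11:119057206-119057455, minus strand: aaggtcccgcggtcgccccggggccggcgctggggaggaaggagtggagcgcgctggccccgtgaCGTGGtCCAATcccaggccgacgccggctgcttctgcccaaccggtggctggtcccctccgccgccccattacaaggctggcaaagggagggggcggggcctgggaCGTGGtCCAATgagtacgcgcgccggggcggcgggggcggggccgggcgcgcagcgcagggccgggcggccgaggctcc

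Gene reads came to 16697370 to 17191933 a library. FPKM is fragments scaled by exon length and by a divisor for each library. That divisor was 17490559 to 17980830 reads in sgNC, above the gene reads of each library. In the libraries labelled sgOTUD1 it was 16237967 to 16654341 reads, below them. It therefore goes with the groups, and folds of FPKM stand higher than a scaling by gene reads would give. OTUD1 was at 16.2, 17.9 and 17.1 FPKM in the libraries labelled sgOTUD1 and at 13.9, 15.6 and 14.6 FPKM in sgNC, which goes against a loss of the transcript. Its log2 fold change was 0.20 (limma adjusted p = 0.0167), the two-sided exact permutation p was 0.1, the smallest that 3 against 3 libraries allow, and the limma call ended with TPM or median-ratio scaling, with length correction and without sgNC replicate 1 or sgOTUD1 replicate 2. A small insertion or deletion at a cut site need not lower a transcript, so this level is no check on such a knockout. Of 16 epithelial and urothelial markers 11 were tested, and 7 rose and 3 fell. These are 63.6% and 27.3%, beside 31.2% and 24.7% of all genes tested. KRT5 was at 1483 and 1195 FPKM in the libraries labelled sgOTUD1 and in sgNC and rose, and CDH1 was at 48.2 and 69.1 FPKM in the libraries labelled sgOTUD1 and in sgNC and fell, as did TP63 and UPK3B. The uroplakin UPK3A was at 0 throughout, and UPK1A, UPK1B, PPARG and KRT20 were not tested because their means lay under 0.5 FPKM. Markers of fibroblasts, endothelium and leukocytes reached at most 6.17 FPKM, with PDGFRB, KDR and PTPRC at 0 in all libraries. The tested ones were all called lower, beside 24.7% of all genes tested. These were COL1A1 (3.85 and 5.87 FPKM in the libraries labelled sgOTUD1 and in sgNC), FAP (3.37 and 4.01 FPKM), CDH5 (0.644 and 2.20 FPKM) and CSF1R (0.429 and 1.14 FPKM). Of 5 plasma cell markers only SDC1, which epithelia also express, was above 0. All 13 mRNAs of the mitochondrial genome, looked at as a possible sign of RNA quality, were lower in the libraries labelled sgOTUD1. Their folds were uneven, from 0.19 for MT-ATP8 to 0.86 for MT-ND4, and whether RNA quality differed was not tested. Mitochondrial reads made up 2.15% ± 0.077 of reads in the libraries labelled sgOTUD1 and 4.01% ± 0.18 in sgNC (SD, n = 3 each). This difference goes with the groups beside every result below, and its part in them was not tested.

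All 10 members passed the filter of a mean of at least 0.5 FPKM. Values of the libraries labelled sgOTUD1 lay above all sgNC values for 9 of the 10, and the groups overlapped for HYOU1. Over the 14658 genes tested, 34.9% did not overlap in this direction and 29.1% in the other. The members were chosen for such values, and nothing is read from the count. The median log2 fold change was 0.80 over the 10 members and 0.03 over all genes tested.

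**Figure D1:**
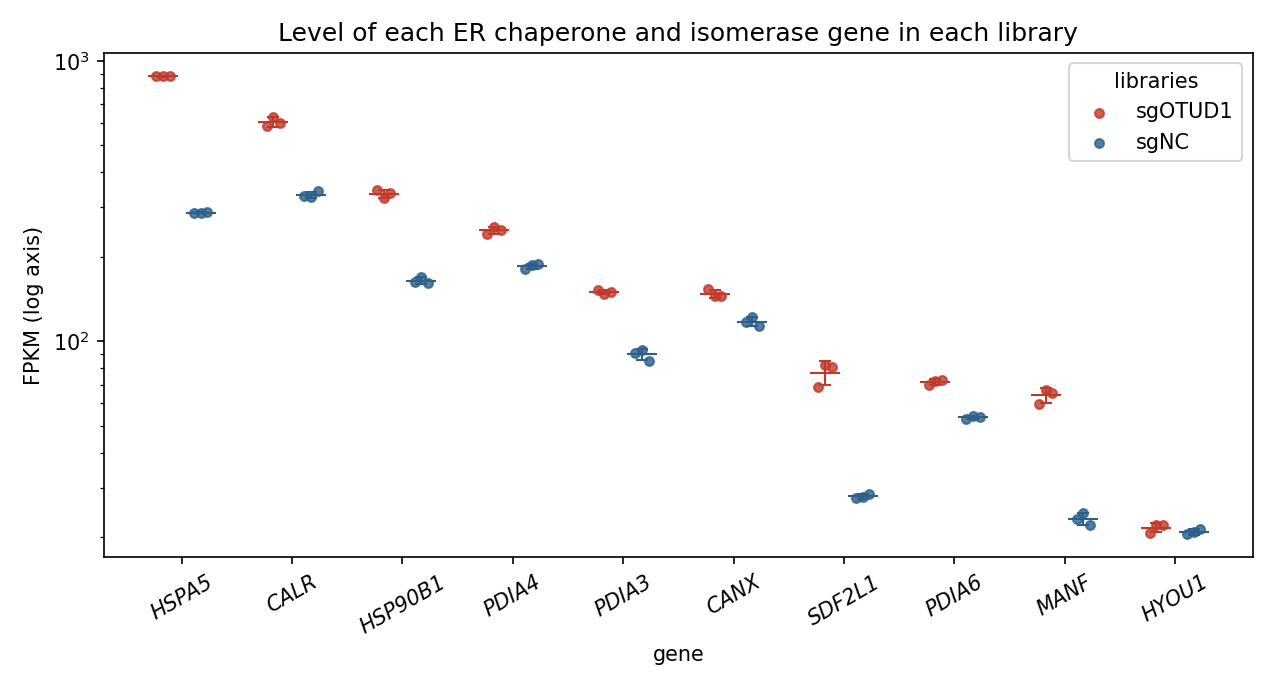
Level of each gene in FPKM (log axis) in the 3 libraries labelled sgOTUD1 and the 3 sgNC libraries, with dots for libraries and bars for mean ± SD. HSPA5 stands highest in the libraries labelled sgOTUD1 at 881 FPKM, and HYOU1 is the gene whose groups overlap.

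The HSP70 and HSP90 type chaperones of the lumen differed most between each other. HSPA5, also called BiP, is the ER HSP70 that binds unfolded chains and restrains the UPR sensors. It lies on chromosome 9 from 125234853 to 125241330 on the minus strand of hg38. It was at 880.05, 880.3 and 883 FPKM in the libraries labelled sgOTUD1 and at 285, 287 and 288 FPKM in sgNC. The groups were far apart and nearly without spread, with a standard deviation of 0.22% and 0.42% of the mean. That is below the 0.42% and 0.71% that counting its 55862 to 57278 reads and 19669 to 20144 reads would give on average. Its mean level was 3.07-fold higher, a log2 fold change of 1.62 (SE 0.025), which exceeds that of 99.6% of the genes tested. HSPA5 was chosen with this fold known, and nothing is read from that rank.

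HSP90B1, also called GRP94, is the HSP90 of the ER and folds integrins and Toll-like receptors. It was at 346, 325 and 337 FPKM in the libraries labelled sgOTUD1 and at 163, 169 and 161 FPKM in sgNC. Every library labelled sgOTUD1 was above every sgNC library, and the mean was 2.04-fold higher (log2 fold change 1.03, SE 0.037). HYOU1, also called GRP170, is a large HSP70 relative that releases nucleotide from BiP. Its levels were 20.7, 22.1 and 22.01 FPKM in the libraries labelled sgOTUD1 and 20.4, 20.8 and 21.4 FPKM in sgNC. Before scaling it had 2655 to 2769 reads in the libraries labelled sgOTUD1 and 2786 to 2884 reads in sgNC. The FPKM ranges overlapped and its log2 fold change came to 0.05 (SE 0.04). The sign turned to -0.10 with TPM and -0.09 with median-ratio scaling and stayed positive at 0.12 with length correction. The HSPA5 level was therefore 40.8 ± 1.45 times that of HYOU1 in the libraries labelled sgOTUD1 and 13.7 ± 0.25 times in sgNC (SD, n = 3 each), and 2.63 ± 0.082 and 1.75 ± 0.05 times that of HSP90B1. Of the 3 printed ERSE-II sites HYOU1 holds 2, and SDF2L1, which holds the other, was 2.76-fold higher.

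SDF2L1 and MANF are smaller partners of BiP. SDF2L1 binds the ER J-domain protein DNAJB11 and keeps client chains soluble. It was at 68.4, 82.3 and 80.7 FPKM in the libraries labelled sgOTUD1 and at 27.6, 27.7 and 28.5 FPKM in sgNC. The lowest of the libraries labelled sgOTUD1, replicate 1, was still above all sgNC values. Its standard deviation of 9.88% of the mean in the libraries labelled sgOTUD1 was the largest of the 10 genes there, against 2.68% from counting its 1252 to 1469 reads. MANF is a small protein that stabilises the BiP complex with its clients and is secreted when ER calcium falls. It was at 59.7, 67.1 and 65.2 FPKM in the libraries labelled sgOTUD1 and at 23.1, 24.4 and 22.1 FPKM in sgNC. Both genes were 2.76-fold higher by mean level, with log2 fold changes of 1.43 (SE 0.070) for SDF2L1 and 1.43 (SE 0.056) for MANF. Only HSPA5 among the members had a larger log2 fold change.

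CALR and CANX encode the lectin chaperones calreticulin, soluble in the lumen, and calnexin, anchored in the membrane. CALR was at 583, 630.05 and 600.3 FPKM in the libraries labelled sgOTUD1 and at 328, 327 and 343 FPKM in sgNC. It was 1.82-fold higher (log2 fold change 0.86, SE 0.039). CANX was at 153, 144 and 144 FPKM in the libraries labelled sgOTUD1 and at 117, 122 and 113 FPKM in sgNC. These groups did not overlap either, but the gap was small and the fold 1.26 (log2 fold change 0.33, SE 0.041). The soluble lectin thus stood at 4.11 ± 0.28 times the level of the membrane one in the libraries labelled sgOTUD1 and at 2.84 ± 0.18 times in sgNC (SD, n = 3 each).

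Among the disulfide isomerases, PDIA3 (ERp57) works with calreticulin and calnexin on glycoproteins. It was at 152, 148 and 149 FPKM in the libraries labelled sgOTUD1 and at 90.8, 92.8 and 85.3 FPKM in sgNC, a 1.67-fold higher mean (log2 fold change 0.73, SE 0.039). PDIA4 (ERp72) is found in complexes with BiP. It was at 241, 256 and 248 FPKM in the libraries labelled sgOTUD1 and at 181, 187 and 188 FPKM in sgNC. PDIA6 (P5) also binds BiP and damps the UPR sensors. It was at 69.9, 72.04 and 72.8 FPKM in the libraries labelled sgOTUD1 and at 52.8, 54.1 and 53.5 FPKM in sgNC. Both were 1.34-fold higher, with log2 fold changes of 0.42 (SE 0.034) for PDIA4 and 0.41 (SE 0.031) for PDIA6. The isomerases lay without overlap between the groups, and PDIA3, the partner of the lectins, had the largest fold of these 3.

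**Figure D2:**
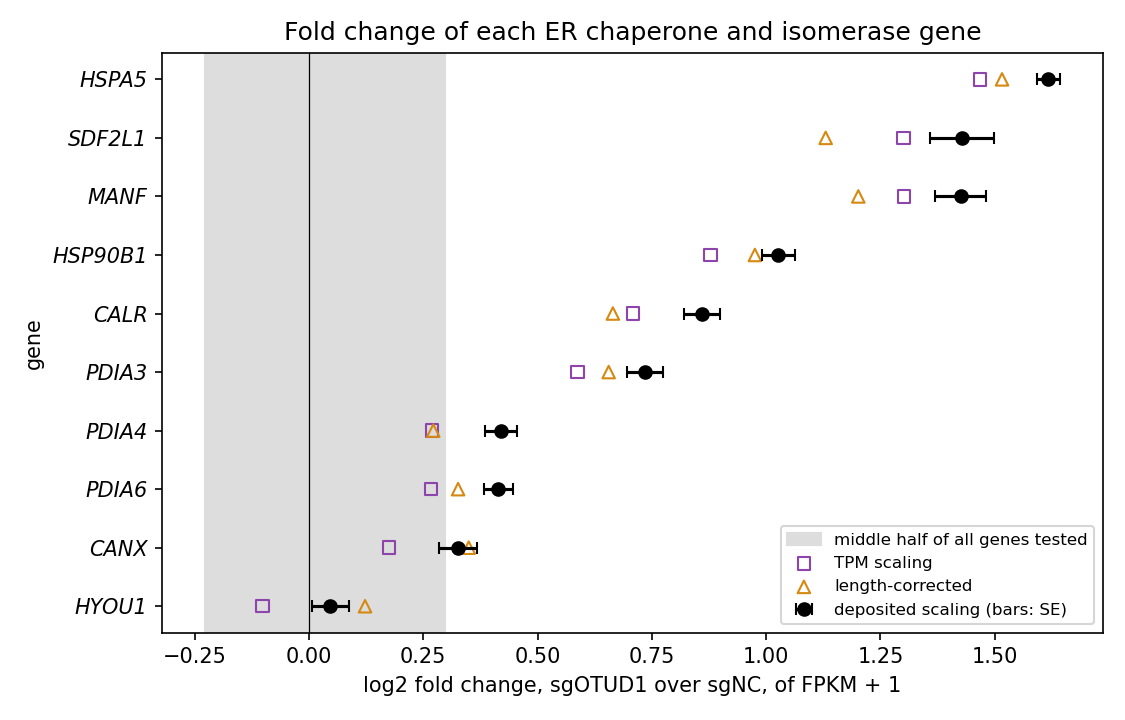
Log2 fold change of FPKM + 1, sgOTUD1 over sgNC, for each gene with the deposited scaling (bars are SE), with TPM scaling and after length correction, beside the interquartile range of all genes tested (grey). HSPA5 is at 1.62, and HYOU1 at 0.05 is the gene whose sign depends on the scaling.

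The order of levels differed between the groups. In the libraries labelled sgOTUD1 HSPA5 came first, followed by CALR, HSP90B1, PDIA4, PDIA3, CANX, SDF2L1, PDIA6, MANF and HYOU1. Neighbours in this order were apart in their ranges except PDIA3 and CANX, and SDF2L1 and PDIA6. In sgNC the order was CALR, HSPA5, PDIA4, HSP90B1, CANX, PDIA3, PDIA6, SDF2L1, MANF and HYOU1, with no overlap between neighbours. Levels per kilobase depend on the exon length used, which is the union of all annotated exons of a gene. That union ranged from 1099 nt for SDF2L1 to 7694 nt for HYOU1.

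Summed over the 10 genes, the level was 2601 ± 25.9 FPKM in the libraries labelled sgOTUD1 and 1301 ± 11.3 FPKM in sgNC (SD, n = 3 each). As a share of all assigned reads this was 0.937% ± 0.0033 and 0.525% ± 0.008. HSPA5 made up 45.7% of the difference in summed FPKM, CALR 20.9% and HSP90B1 13.2%, whereas HYOU1 made up 0.056%. HSPA5 alone took 35.4% ± 0.13 of the reads of these genes in the libraries labelled sgOTUD1 and 22.5% ± 0.24 in sgNC. Of all assigned reads it took 0.332% in the libraries labelled sgOTUD1 and 0.118% in sgNC. The 10 genes therefore differed in makeup as well as in sum.

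Fold change fell with exon length over the nuclear protein-coding genes tested. The median log2 fold change was 0.32 for the 846 genes over 1000 and up to 2000 nt and -0.16 for the 2406 genes over 8000 nt. Among the members SDF2L1 is the shortest and HYOU1 the longest. After removal of a smooth trend of length, the log2 fold change was 1.52 for HSPA5, 1.202 for MANF, 1.13 for SDF2L1, 0.98 for HSP90B1, 0.66 for CALR and 0.66 for PDIA3. It was 0.35 for CANX, 0.33 for PDIA6 and 0.27 for PDIA4, and CANX was no longer the lowest of the 9 genes that did not overlap. HYOU1 remained lowest. The median over the members was 0.66 in this setting.

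**Figure D3:**
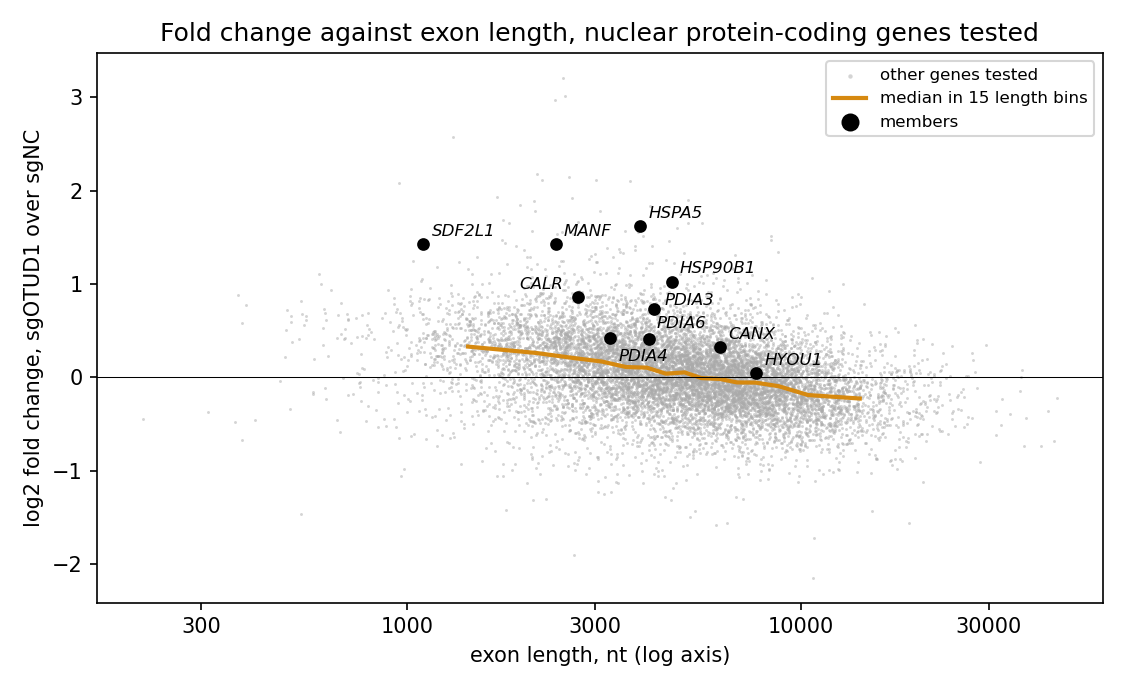
Log2 fold change, sgOTUD1 over sgNC, against exon length in nt (log axis) for nuclear protein-coding genes tested, with the median in bins of length as a line and the 10 genes as black dots. SDF2L1, MANF and HSPA5 stand far above the line at their lengths, and HYOU1 lies close to it.

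Copies and overlapping genes could take or give reads. The processed pseudogene PDIA3P1 on chromosome 1 was at 7.81 ± 0.48 FPKM in the libraries labelled sgOTUD1 and 5.84 ± 0.37 FPKM in sgNC (SD, n = 3 each), a log2 fold change of 0.37 (SE 0.061). PDIA3P2 had at most 9 reads in a library and HSP90B2P at most 10, and HSP90B3P had 0. Of the genes that overlap a member's exons, the antisense genes AP003392.3 at HYOU1 and AC092069.1 at CALR, MIR3652 in HSP90B1 and AC018512.1 at PDIA3 were listed at 0. C12orf73 at HSP90B1 was at 4.26 and 2.22 FPKM in the libraries labelled sgOTUD1 and in sgNC, while ATP6V1C2, which covers 25.2% of the PDIA6 exon bases on the other strand, at 1.53 and 0.399 FPKM. ELL3 and CATSPER2P1 at PDIA3, CBY3 at CANX and TTC41P at HSP90B1 stayed under 1 FPKM in both groups. No label states whether reads were counted by strand, and without it the reads of such pairs cannot be told apart. The listed levels were small beside those of the members, but they do not show how reads in shared bases were assigned. Such bases made up 25.2% of the PDIA6 exon bases, 14.8% of those of PDIA3 (with ELL3), 9.95% for CALR and 8.66% for HYOU1. Their part in the levels and ratios above was not tested.

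Other genes of ER folding were read from lists made with earlier results of these data known. Of 67 such genes 59 were tested, and 35 rose, 5 fell and 19 did not pass the test (limma adjusted p under 0.05), as sgOTUD1 over sgNC. The shares of 59.3% higher and 8.47% lower stand beside 31.2% and 24.7% of all genes tested. The median log2 fold change was 0.21 against 0.03 over all genes. With TPM scaling 28 were higher and 11 lower, and of all called genes 38.2% were higher, against 55.9% with the deposited scaling.

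Among 15 tested BiP cofactors and other folding factors of the lumen, 9 rose and 1 fell, and the median log2 fold change was 0.33. As shares, 60% and 6.67% stand beside 31.2% and 24.7% of all genes tested. Most changed was DNAJB9 (ERdj4), a J-domain protein that brings BiP to the sensor IRE1, at 18.7 ± 1.39 FPKM in the libraries labelled sgOTUD1 and 5.77 ± 0.49 FPKM in sgNC (log2 fold change 1.54, SE 0.071, limma adjusted p = 9.01e-06). DNAJB11 (ERdj3), which acts with SDF2L1, rose to 21.3 FPKM in the libraries labelled sgOTUD1, against 11.2 FPKM in sgNC. DNAJC25 rose to 11.3 FPKM in the libraries labelled sgOTUD1, against 5.82 FPKM in sgNC. MESD, a chaperone of LDL receptor relatives, fell to 4.25 FPKM in the libraries labelled sgOTUD1, against 6.10 FPKM in sgNC. SDF2, the paralog of SDF2L1, was at 8.72 and 6.73 FPKM in the libraries labelled sgOTUD1 and in sgNC (limma adjusted p = 0.0058). CDNF, the paralog of MANF, was under the filter at 0.106 and 0.228 FPKM in the libraries labelled sgOTUD1 and in sgNC. SIL1, the other nucleotide exchange factor of BiP beside HYOU1, was at 4.65 and 4.25 FPKM in the libraries labelled sgOTUD1 and in sgNC and did not pass the test (limma adjusted p = 0.251). These 3 genes were named after their values were seen.

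Among 11 further tested PDI family genes there were 5 higher and 1 lower, and their median was 0.10. As shares, 45.5% and 9.09% stand beside 31.2% and 24.7% of all genes tested. P4HB, with the highest level of this list, was at 149.5 and 137.3 FPKM in the libraries labelled sgOTUD1 and in sgNC. Its log2 fold change was 0.12 (SE 0.030, limma adjusted p = 0.0117), and it was named after its values were seen. ERP29 (62.4 and 38.6 FPKM in the libraries labelled sgOTUD1 and in sgNC), ERP44 (21.6 and 13.5 FPKM), which returns escaped ER proteins, and the membrane protein TMX2 (34.4 and 26.4 FPKM) rose. TMX4 fell to 2.93 FPKM in the libraries labelled sgOTUD1, against 3.88 FPKM in sgNC. A further list held enzymes of the calnexin cycle with SELENOF, lectin paralogs, degradation lectins and cargo receptors. Of its 12 tested genes 6 rose (50%) and 2 fell (16.7%), beside 31.2% and 24.7% of all genes tested. The median of this list was 0.10. SELENOF, which binds the folding sensor UGGT1, rose, at 42.6 and 28.9 FPKM in the libraries labelled sgOTUD1 and in sgNC, as did the cargo lectin LMAN2, at 96.3 and 73.1 FPKM in the libraries labelled sgOTUD1 and in sgNC. UGGT1 itself, which puts glucose back on unfolded glycoproteins, fell to 8.23 ± 0.25 FPKM in the libraries labelled sgOTUD1, against 12.7 ± 0.71 FPKM in sgNC (log2 fold change -0.57, SE 0.050, limma adjusted p = 0.000102). GANAB, the glucosidase II subunit that removes this glucose, fell to 205 FPKM in the libraries labelled sgOTUD1, against 221 FPKM in sgNC.

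In a list of thiol oxidation and redox genes that also held SELENOK and SELENOS, 7 of 9 tested genes rose and 1 fell (median 0.57). As shares, 77.8% and 11.1% stand beside 31.2% and 24.7% of all genes tested. SELENOK (19.1 and 9.98 FPKM in the libraries labelled sgOTUD1 and in sgNC), VKORC1 (5.49 and 2.71 FPKM), which recycles vitamin K, and the peroxiredoxin PRDX4 (63.9 and 41.2 FPKM) rose. QSOX1, a sulfhydryl oxidase, fell to 22.7 FPKM in the libraries labelled sgOTUD1, against 34.8 FPKM in sgNC. The prolyl isomerases together with the collagen chaperone SERPINH1 had 6 of 9 genes rising (66.7%) and 0 falling (median 0.33). Beside these stand the same 31.2% and 24.7% of all genes tested. FKBP11 (5.69 and 3.45 FPKM in the libraries labelled sgOTUD1 and in sgNC), SERPINH1 (80.7 and 54.7 FPKM) and FKBP2 (45.7 and 32.1 FPKM) rose most. Of the KDEL receptors, which bring soluble ER proteins back from the Golgi, KDELR1 (120.4 and 94.8 FPKM in the libraries labelled sgOTUD1 and in sgNC) and KDELR2 (51.9 and 39.9 FPKM) rose, and KDELR3 (6.71 and 7.39 FPKM) did not pass the test.

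**Figure D4:**
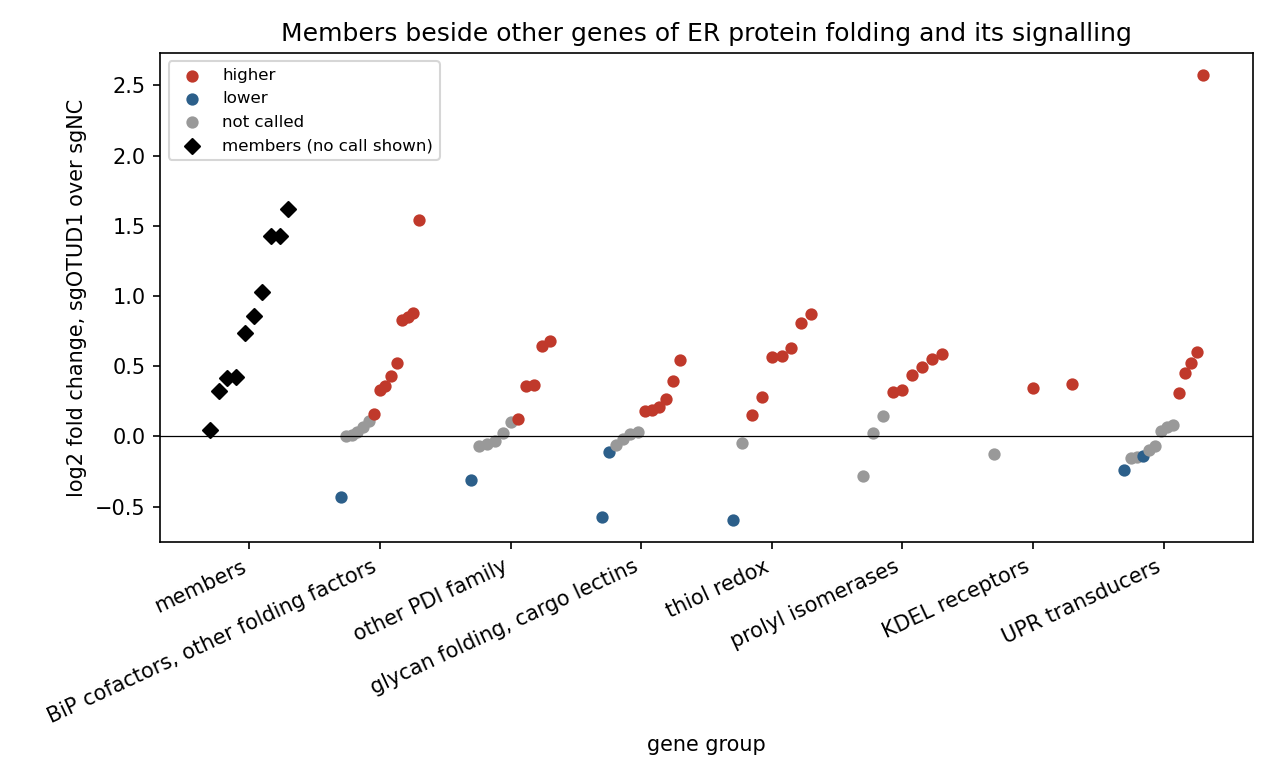
Log2 fold change, sgOTUD1 over sgNC, of the 10 genes (black diamonds, no call shown) and of other tested genes of ER folding and its signalling, 1 dot per gene, coloured by the limma call at an adjusted p under 0.05. Each group but the prolyl isomerases and KDEL receptors holds both higher and lower calls, and DDIT3 at 2.57 is the highest dot.

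Of 14 sensors and factors linked to the UPR, with the subunits of NF-Y among them, 5 rose, 2 fell and 7 were not called, with a median of 0.05. The 35.7% higher and 14.3% lower stand beside 31.2% and 24.7% of all genes tested. DDIT3, the stress factor CHOP, rose to 85.8 ± 4.67 FPKM in the libraries labelled sgOTUD1, against 13.6 ± 1.35 FPKM in sgNC (log2 fold change 2.57, SE 0.074, limma adjusted p = 2.26e-06). XBP1 (47.9 and 33.1 FPKM in the libraries labelled sgOTUD1 and in sgNC) and NFYA (17.2 and 10.997 FPKM), a subunit of NF-Y, rose. ATF6 fell to 7.56 FPKM in the libraries labelled sgOTUD1, against 9.09 FPKM in sgNC, a log2 fold change of -0.24, and that call ended with length correction (-0.16, limma adjusted p = 0.0636). NFYC fell to 4.95 FPKM in the libraries labelled sgOTUD1, against 5.57 FPKM in sgNC, a log2 fold change of -0.14 (limma adjusted p = 0.0265). Its call ended without sgNC replicate 1, 2 or 3 and without sgOTUD1 replicate 2 or 3, with adjusted p from 0.0533 to 0.0795 in these fits. FPKM does not show XBP1 splicing or the cleavage of ATF6.

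Of 15 tested cytosolic and mitochondrial counterparts, 13 rose (86.7%, beside 31.2% of all genes tested) and 0 fell (beside 24.7%), with a median of 0.78. HSPA8, the constitutive cytosolic relative of HSPA5, rose to 113 ± 3.27 FPKM in the libraries labelled sgOTUD1, against 36.4 ± 0.99 FPKM in sgNC (log2 fold change 1.61, SE 0.037, limma adjusted p = 1.09e-06). HSPA1A (320.2 and 33.9 FPKM in the libraries labelled sgOTUD1 and in sgNC), whose near-identical copy makes its reads uncertain, and DNAJB1 (194.9 and 44.6 FPKM) rose more. A difference between the compartments was not tested.

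The 5 protein-coding genes whose 6 values lay closest to the median profile of the members were TSPAN1, PLK2, FOXC1, SAT1 and AKAP17A. Likeness was the Euclidean distance over 6 libraries of log2(FPKM + 1) minus the sgNC mean, from 0.046 for TSPAN1 to 0.056 for AKAP17A. PLK2 was at 277 and 161 FPKM in the libraries labelled sgOTUD1 and in sgNC, and FOXC1 at 27.2 and 14.9 FPKM. With 2 groups such a distance mostly matches the size of the difference.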

How the data were processed

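RNA from 6 libraries, 3 labelled sgOTUD1 and 3 labelled sgNC by their titles, was read from 1 table of FPKM that the authors deposited, as its column headers say. Tools named in the submitters' processing notes are DESeq2 1.20.0 and featureCounts 1.5.0-p3, on hg38. Aligner and strandedness are not given in the sources. All 58735 identifiers matched GENCODE 29. FPKM times exon-union length gave whole reads for 100% of values (tolerance 0.001 reads), which gave the reads and the divisor of each library. Replicate pairs differed beyond sampling noise.

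limma 3.58.1 in R 4.3.3 (lmFit, eBayes with trend and robust) was run on log2(FPKM + 1) with group as the only term, two-sided, for 14658 genes (mean FPKM 0.5 or more), with Benjamini-Hochberg adjustment over all of them. Fold changes on this scale understate those of low genes. The fit was also run on simulated reads with far fewer changed genes and no trend of length, so that run is no check under the conditions of these data. Alternatives were a replicate block, each library left out, other filters, a pseudocount of 0.1, TPM and median-ratio scaling, plain eBayes, a length correction by spline with 4 degrees of freedom, and limma-voom. Python 3.11.15, pandas 2.3.3 and SciPy 1.17.1 were used.

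Members, lists and tests were chosen with earlier results of these data known. Named genes were all members, OTUD1, copies and overlaps of members, per list the 3 largest called changes and up to 2 called against the list's median, and 5 genes most like the members.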

Additional observations from a re-analysis of the deposited data

How the results depend on the processing

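The median log2 fold change of the members was 0.80 with the deposited scaling, 0.65 with TPM, 0.66 with median-ratio scaling and 0.66 with length correction, and 0.79 to 0.80 with each library left out. TPM moved the median of all genes to -0.10 and median-ratio scaling to -0.07, against 0.03, and relative to it the members were at 0.75 and 0.73, against 0.77. Length correction moved that median to -0.02 and a filter at a mean of 5 FPKM moved it to 0.14. Relative to it the members were then at 0.68 and 0.66. OTUD1 was at 0.061 with TPM, 0.071 with median-ratio scaling and 0.025 with length correction (limma adjusted p from 0.291 to 0.711), and at 0.17 to 0.24 with a library left out. Over all genes 4577 were higher and 3615 lower, but 3140 and 5087 with TPM, and 3266 and 4971 with median-ratio scaling, which turned the balance; 1757 were lower with a filter at a mean of 5 FPKM, where fewer genes were tested. Other ER folding genes lower numbered 5, 11 with TPM and 10 with median-ratio scaling, where 28 were higher, against 35. With length correction 30 were higher and 7 lower. Their share higher among called genes was 71.8% with TPM, 73.7% with median-ratio scaling and 81.1% with length correction, against 87.5%. TPM and median-ratio scaling put another scale per library in place of the FPKM divisor, which was larger in sgNC. The median-ratio scale was set on genes with a mean of at least 5 FPKM and values above 0 in all libraries. With the deposited scaling, genes at a filter of 5 FPKM had the median of 0.14 given above, so this scale depends on the genes it was set on. What set that divisor apart between the groups was not tested, nor the cause of the change with length correction. A replicate block gave 4431 genes higher and 3360 lower, with deviations of same-numbered libraries correlated at -0.051 to 0.0016, so the numbers pair nothing; of the named genes it ended the call of NFYC alone (adjusted p = 0.0676). NFYC was also lost without a filter (adjusted p = 0.05002). ELL3, not called, ranged from -0.11 to 0.0025 with a library left out, positive only without sgNC replicate 3. Besides OTUD1, 41 genes named by the rule above were called, and 39 of them kept the call in every alternative that tested them. NFYC and ATF6 did not. Many of the 41 were named because their called changes were the largest of their list, so these kept calls say little about other genes. Counting the 537 to 548 reads of SDF2L1 in sgNC alone gives a spread of 4.29% of its level.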

Other observations

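Genes other than the members that hold an exact ERSE or ERSE-II in a RefSeq promoter window numbered 37, of which 23 were tested, with 12 rising and 5 falling (limma adjusted p under 0.05, sgOTUD1 over sgNC). These are 52.2% and 21.7%, beside 31.2% and 24.7% of all genes tested, with a median log2 fold change of 0.25. The examples here were named after their values were seen. HERPUD1, a membrane protein of ER-associated degradation with an ERSE-II, rose to 49.3 ± 1.79 FPKM in the libraries labelled sgOTUD1, against 12.5 ± 0.11 FPKM in sgNC (log2 fold change 1.90, limma adjusted p = 5.85e-07). CRELD2, a secreted ER stress gene with an ERSE, rose to 41.1 FPKM in the libraries labelled sgOTUD1, against 22.7 FPKM in sgNC. SERP1, which protects membrane proteins during stress, rose to 37.3 FPKM in the libraries labelled sgOTUD1, against 21.5 FPKM in sgNC. FICD, which modifies BiP and holds an ERSE, was at 0.800 FPKM in the libraries labelled sgOTUD1 and 0.992 FPKM in sgNC and did not pass the test (limma adjusted p = 0.194). GYS1, a glycogen synthase gene with an ERSE-II, fell to 13.99 FPKM in the libraries labelled sgOTUD1, against 19.8 FPKM in sgNC.

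Members with an ERSE had folds of 1.26 to 3.07, those with an ERSE-II 1.03 and 2.76, and those with neither exact element 1.34 and 2.76. A match of letters is a description of the window and not a measure of binding.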
